A study of Homo sapiens with 10 samples.

Results

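The 10 genes described here encode the proteins that hold RNA polymerase II at the promoter-proximal pause and those that carry it into elongation. Their rows were taken by gene symbol, with no threshold on a measured value, and the set was drawn up with earlier results of these data known. SUPT5H and SUPT4H1 encode the 2 subunits of DSIF, NELFA, NELFB, NELFCD and NELFE the 4 subunits of NELF, AFF1 and AFF4 the scaffolds of the super elongation complex, and ELL and ELL2 its elongation factors. All 10 were measured in every library, out of 18034 genes listed. HCT116 cells, an established line from a human colorectal carcinoma, were profiled by messenger RNA sequencing in 5 groups of 2 libraries. In the inhibitor experiment, cells labelled as genotype control received EPZ-5676, an inhibitor of the histone H3 methyltransferase DOT1L, at 10 µM for 72 h (EPZ), or DMSO. In the knockdown experiment, all cells carried an shRNA against CDK9 (shCDK9). Per the labels, CDK9 was put back as the K56A mutant (K56A) or as the wild type (WT), and the third line is labelled EV, a name the labels do not expand. The labels name neither the shRNA sequence nor the promoter of the CDK9 constructs. They do not say whether a line was 1 clone, or whether the replicates were separate cultures, so p-values measure only the spread between these libraries, which may be technical.

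As background, RNA polymerase II pauses shortly after it starts a gene because DSIF and NELF bind it and slow it down. The kinase CDK9, as part of P-TEFb, phosphorylates DSIF, NELF and the polymerase, after which NELF leaves and DSIF stays on as a factor that helps elongation. The super elongation complex brings P-TEFb to genes that are switched on fast and carries ELL proteins, which raise the speed of the polymerase. The title of the series links methylation of CDK9 by DOT1L to repair of broken DNA, and the comparisons ask which transcripts differ when DOT1L is inhibited or when CDK9 carries the mutation.

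The tables hold FPKM, a read level corrected for transcript length and library size, which allows levels of different genes to be set side by side. They hold no counts, so the depth of each library is unknown. Across the genes tested, log2 levels of the 2 replicates of a group had r from 0.981 in DMSO to 0.994 in K56A (across genes, which are not independent replicates). Of 10 colorectal epithelial markers, 7 were listed, with a summed level of 2524 to 2754 FPKM in the inhibitor libraries and 1609 to 1727 FPKM in the knockdown libraries; CDX1, VIL1 and LGALS4 were not listed. KRT20 stayed under 1 FPKM in all libraries, and the other 6 reached it. KRT8 stood at 1160.4 to 1308 FPKM in the inhibitor libraries and 548 to 615 FPKM in the knockdown libraries, while EPCAM stood at 139 to 184 FPKM in the inhibitor libraries and 338 to 385 FPKM in the knockdown libraries. No leukocyte or endothelial marker reached 1 FPKM. COL1A1 was the only fibroblast marker listed, at 19.3 to 23.1 FPKM in the inhibitor libraries and 27.4 to 36.2 FPKM in the knockdown libraries. HBA2 alone of 3 erythroid markers was listed, in the inhibitor table, at 1.34 to 3.66 FPKM. CDK9 stood at 40.2 ± 2.43 FPKM in EPZ and 40.7 ± 4.47 FPKM in DMSO, and at 2556 ± 78.3 FPKM in K56A, 3018 ± 59.8 FPKM in WT and 17.9 ± 2.19 FPKM in EV (SD, n = 2 each). DOT1L also differed between the CDK9 lines, at 718 ± 21.4 FPKM in K56A, 573 ± 6.88 FPKM in WT and 333 ± 13.1 FPKM in EV, against 10.5 ± 0.219 FPKM in EPZ and 12.6 ± 0.0298 FPKM in DMSO (SD, n = 2 each). The labels name no DOT1L construct. By limma, CDK9 was higher by 7.36 ± 0.07 on the log2 scale in WT than in EV (SE; adjusted p = 7.63e-10) and by 7.12 ± 0.07 in K56A than in EV (adjusted p = 9.94e-10), and DOT1L by 0.32 ± 0.04 in K56A than in WT (adjusted p = 0.0397). Differences between the CDK9 lines cannot be told apart from differences in DOT1L.

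SUPT5H, of the DSIF complex, was at or near the top of the 10 genes in every group. SUPT5H (ENSG00000196235, GRCh38 chr19:39445546-39476670, plus strand), the large DSIF subunit and a direct substrate of CDK9, stood at 75.0 and 67.1 FPKM in EPZ and 73.3 and 73.3 FPKM in DMSO. It stood at 80.4 and 77.8 FPKM in K56A, 72.9 and 74.3 FPKM in WT and 76.4 and 74.8 FPKM in EV. SUPT5H thus lay within a narrow band in all 10 libraries, and both K56A libraries were above the other 4 knockdown libraries. Among all genes tested, both K56A libraries lay above both EV libraries for 27.6% and above both WT libraries for 26%. The share of genes with K56A above all 4 at once was not computed. SUPT4H1 (ENSG00000213246, chr17:58345175-58353093, minus strand), the small zinc-finger subunit, stood at 70.9 and 77.3 FPKM in EPZ and 66.9 and 77.3 FPKM in DMSO. In the knockdown experiment its levels were 36.3 and 36.1 FPKM in K56A, 38.9 and 40.0 FPKM in WT and 37.3 and 42.9 FPKM in EV. The mean of SUPT4H1 in EV was 55.6% of its mean in DMSO, while that of SUPT5H was 103%. These 2 levels come from tables normalized separately, with different culture histories, and were not tested. The whole span of SUPT4H1 (7919 bases) is overlapped by TSPOAP1-AS1 on the opposite strand, and 7888 bases of it by the gene AC004687.2 on its own strand. Whether counting used strand is not given in the sources used here. These are overlaps of gene spans, and how far their exons or reads overlap was not tested, so the level of SUPT4H1 is uncertain.

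The 4 NELF subunits stood at unequal levels. Summed over all its transcripts, NELFCD (ENSG00000101158, chr20:58981252-58995133, plus strand) had the highest mean level of the 4 in every group. Its levels were 41.2 and 43.5 FPKM in EPZ, 47.7 and 43.4 FPKM in DMSO, 55.8 and 59.5 FPKM in K56A, 59.7 and 55.0 FPKM in WT and 54.0 and 56.5 FPKM in EV. With protein-coding transcripts only, NELFCD had the lowest mean of the 4 in K56A, WT and EV, at 0.799, 0.666 and 0.573 of the NELF mean. The WT libraries were at 0.874 and 0.458. NELFB was then highest in these groups, at 1.31, 1.43 and 1.48, and NELFCD lay below NELFB and NELFE in EPZ and DMSO. NELFE (ENSG00000204356, chr6:31952087-31959038, minus strand), the RNA-binding subunit, stood at 40.0 and 37.4 FPKM in EPZ, 46.2 and 40.6 FPKM in DMSO, 29.9 and 29 FPKM in K56A, 28.4 and 30.3 FPKM in WT and 27.6 and 29.5 FPKM in EV. Both EPZ libraries of NELFE lay below both DMSO libraries, and the 6 knockdown libraries overlapped. NELFB (ENSG00000188986, chr9:137255327-137273542, plus strand), which bridges subunits of the complex, stood at 36.7 and 33.1 FPKM in EPZ, 40.1 and 33.4 FPKM in DMSO, 27.3 and 24.2 FPKM in K56A, 25.2 and 24.8 FPKM in WT and 24.8 and 26.8 FPKM in EV. NELFA (ENSG00000185049, chr4:1982717-2041903, minus strand), a subunit that contacts the polymerase, stood at 24.8 and 19.0 FPKM in EPZ, 21.4 and 24.9 FPKM in DMSO, 27.1 and 25.7 FPKM in K56A, 24.5 and 22.9 FPKM in WT and 25.2 and 24.9 FPKM in EV. NELFB overlapped between the groups of each experiment, and both K56A libraries of NELFA were above the other 4 knockdown libraries. The share of all genes with that K56A pattern was not computed.

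In the knockdown libraries, retained-intron transcripts held 39.8% to 45.2% of the FPKM of NELFE and 53.3% to 60.7% of that of NELFCD. As examples, 2 introns are printed, each kept in only some of these forms. Chosen after the values were seen, they are introns of at most 300 bases with coding exons on both sides, from the retained-intron transcripts of NELFE and NELFCD with the highest mean level in EV among those that hold such an intron. The NELFE intron (GRCh38 chr6:31953832-31954079, minus strand, 248 bases) is kept in NELFE-208 and NELFE-211. It is spliced out in 4 GENCODE 29 transcripts that have a coding sequence, the only ones searched. The NELFCD intron (GRCh38 chr20:58991076-58991311, plus strand, 236 bases) is kept in NELFCD-206 and spliced out in 2 such transcripts. NELFCD-206 also keeps introns of 434, 336, 345 and 101 bases, while NELFCD-204 and NELFCD-208 keep other introns and not the printed one. Both sequences are from GENCODE 29 transcripts, 5′ to 3′, and capitals mark the first and last 2 bases, GT and AG, where splicing would cut.
NELFE-208 intron: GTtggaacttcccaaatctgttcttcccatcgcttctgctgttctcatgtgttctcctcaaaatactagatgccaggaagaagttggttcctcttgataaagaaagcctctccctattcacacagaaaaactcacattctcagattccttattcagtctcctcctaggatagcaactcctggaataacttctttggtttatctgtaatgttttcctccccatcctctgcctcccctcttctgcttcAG
NELFCD-206 intron: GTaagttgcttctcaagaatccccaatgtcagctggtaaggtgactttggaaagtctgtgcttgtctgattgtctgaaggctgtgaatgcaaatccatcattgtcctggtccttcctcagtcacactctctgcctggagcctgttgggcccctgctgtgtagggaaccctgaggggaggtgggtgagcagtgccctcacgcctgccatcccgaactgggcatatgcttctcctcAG

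The AFF scaffolds and ELL factors were lower than DSIF and NELF in every group. AFF4 (ENSG00000072364, chr5:132875395-132963634, minus strand), the scaffold of the super elongation complex, stood at 14.5 and 17.3 FPKM in EPZ, 12.7 and 15.3 FPKM in DMSO, 13.2 and 12.2 FPKM in K56A, 13.0 and 12.7 FPKM in WT and 13.0 and 12.7 FPKM in EV. AFF1 (ENSG00000172493, chr4:86935002-87141054, plus strand), its paralog and a partner of MLL in leukaemia fusions, stood at 11.2 and 11.6 FPKM in EPZ, 11.9 and 12.1 FPKM in DMSO, 6.45 and 6.14 FPKM in K56A, 6.70 and 6.38 FPKM in WT and 6.75 and 5.62 FPKM in EV. Groups overlapped for AFF4 in both experiments, while both EPZ libraries of AFF1 were below both DMSO libraries. ELL (ENSG00000105656, chr19:18442663-18522116, minus strand) stood at 9.30 and 7.65 FPKM in EPZ, 9.19 and 8.43 FPKM in DMSO, 6.95 and 7.44 FPKM in K56A, 5.99 and 6.11 FPKM in WT and 6.37 and 6.46 FPKM in EV. ELL2 (ENSG00000118985, chr5:95885098-95961851, minus strand) stood at 10.6 and 12 FPKM in EPZ, 9.51 and 10.1 FPKM in DMSO, 3.93 and 4.89 FPKM in K56A, 4.94 and 4.34 FPKM in WT and 4.59 and 3.48 FPKM in EV. Every K56A library of ELL was above every other knockdown library, and both WT libraries were below both EV libraries. The share of all genes with that order of the 3 lines was not computed. For ELL2, both EPZ libraries were above both DMSO libraries and the CDK9 lines overlapped.

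**Figure D1:**
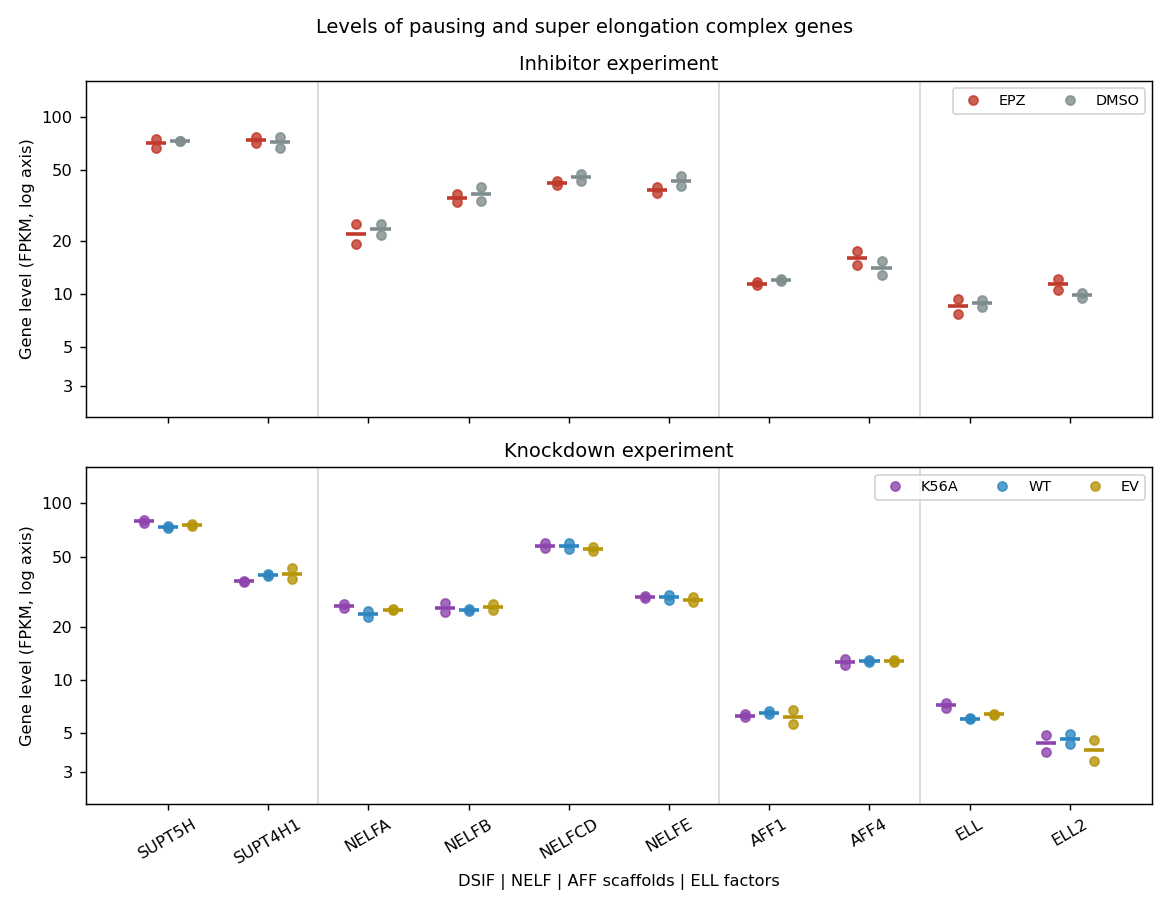
Gene levels in FPKM on a log axis for the 10 genes, with EPZ and DMSO in the upper panel and K56A, WT and EV in the lower panel. Points are libraries and short bars are means of 2; SUPT5H is near the top in both panels, at 67.1 to 80.4 FPKM, and ELL2 is lowest in the knockdown panel, at 3.48 to 4.94 FPKM.

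Ranked by mean level in EPZ, the genes ran SUPT4H1, SUPT5H, NELFCD, NELFE, NELFB, NELFA, AFF4, AFF1, ELL2 and ELL. Neighbours overlapped in that order only for SUPT4H1 with SUPT5H and for AFF1 with ELL2. DMSO had the same order apart from SUPT5H standing above SUPT4H1, with overlaps in that pair and for NELFCD with NELFE. In EV the order was SUPT5H, NELFCD, SUPT4H1, NELFE, NELFB, NELFA, AFF4, ELL, AFF1 and ELL2, where NELFB overlapped NELFA and ELL overlapped AFF1. SUPT5H had a higher level than 91.5% of the 13267 genes at 1 FPKM or more in EPZ and than 92.9% of 13794 such genes in EV. ELL2 had a higher level than 46.6% of those genes in EPZ and than 25.2% in EV. Set beside DMSO without a test, the EV mean was 108% for NELFA, 121% for NELFCD and 91.5% for AFF4. It was 70.3% for NELFB, 65.7% for NELFE, 51.6% for AFF1, 72.8% for ELL and 41.2% for ELL2. These percentages are of sums over all listed transcripts, and coding forms could go the other way. NELFCD-214, the only coding transcript of NELFCD, averaged 10.0 FPKM in EV and 22.7 FPKM in DMSO. NELFA-202, the main coding transcript of NELFA, averaged 16.9 FPKM in EV and 19.6 FPKM in DMSO. Mitochondrially encoded genes held 17.3% to 19.3% of all FPKM in the inhibitor libraries and 25.4% to 27.9% in the knockdown libraries, and their part in these level differences was not tested. In bulk samples like these, fewer cells expressing a gene and less of its RNA per cell cannot be told apart.

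With EPZ, no gene of the 10 passed the test. ELL2 was the gene with the largest difference, at 11.3 ± 1.05 FPKM in EPZ and 9.78 ± 0.388 FPKM in DMSO, a log2 difference of 0.20 ± 0.14 (SE; limma adjusted p = 0.759). AFF4 averaged 15.9 ± 2.0 FPKM in EPZ and 14 ± 1.80 FPKM in DMSO, a log2 difference of 0.18 ± 0.15 (adjusted p = 0.776). All 4 NELF subunits had values below 0, where 50.5% of all genes tested were above 0, with a median log2 difference of -0.09. NELFE was the lowest at -0.16 ± 0.12 (adjusted p = 0.763). Without EPZ replicate 2, NELFA was at 0.10 and NELFB at 0.00, both above 0; without DMSO replicate 2 NELFA was at 0.02, and without DMSO replicate 1 NELFB was at 0.06. The log2 differences of the other 7 were -0.05 for SUPT5H, 0.04 for SUPT4H1, -0.09 for NELFA, -0.07 for NELFB, -0.10 for NELFCD, -0.07 for AFF1 and -0.06 for ELL, with adjusted p-values from 0.837 (NELFCD) to 0.933 (SUPT4H1). The test was limma's moderated test on log2(FPKM + 0.5), two-sided, with Benjamini-Hochberg adjustment over 13130 genes at 0.05. Of those genes, 0.00762% passed, and 5.83% had an unadjusted p under 0.05, as did 0 of the 10. Groups did not overlap for 3 of the 10 (ELL2 higher, AFF1 and NELFE lower), against 37.4% of the genes tested, 18.6% higher and 18.8% lower. The median of the 10 was -0.06 and that of all genes tested 0.00. The 95% intervals of the 10 reached from a fold of 0.725 (NELFA) to one of 1.45 (AFF4), so differences inside these intervals were not resolved. Without DMSO replicate 2 the number of genes called was 1560 in place of 1, and 0 of the 10 were among them.

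Wild-type CDK9, set against EV, gave no call among the 10 genes. ELL2 averaged 4.64 ± 0.425 FPKM in WT and 4.03 ± 0.784 FPKM in EV, a log2 difference of 0.19 ± 0.15 (limma adjusted p = 0.655), the largest of the 10. SUPT5H, NELFA and ELL were lower in both WT libraries than in both EV libraries, by log2 differences of -0.04 ± 0.04, -0.08 ± 0.06 and -0.08 ± 0.08 (SE; limma adjusted p = 0.749, 0.613 and 0.745). The other 6 had log2 differences of -0.02 for SUPT4H1, -0.05 for NELFB, 0.05 for NELFCD, 0.04 for NELFE, 0.08 for AFF1 and 0.00 for AFF4, with limma adjusted p-values from 0.747 (NELFCD) to 0.999 (AFF4). Groups did not overlap for these 3 (SUPT5H, NELFA and ELL) of the 10, against 43.5% of the 11566 genes tested, 22.6% higher and 20.9% lower. The share called over all genes was 0.536%, with 0.0778% higher and 0.458% lower, and 13.5% had an unadjusted p under 0.05, as did 0 of the 10. The median of the 10 was -0.01 and that of all genes tested 0.01. Intervals of the 10 reached from a fold of 0.829 (ELL) to one of 1.46 (ELL2).

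None of the 10 passed between K56A and EV. SUPT4H1 had the smallest p, at 36.2 ± 0.152 FPKM in K56A and 40.1 ± 4.0 FPKM in EV, a log2 difference of -0.14 ± 0.07 (limma adjusted p = 0.383). ELL averaged 7.19 ± 0.347 FPKM in K56A and 6.42 ± 0.0593 FPKM in EV, a log2 difference of 0.15 ± 0.08 (adjusted p = 0.431). The other 8 had log2 differences of 0.06 for SUPT5H, 0.07 for NELFA, -0.01 for NELFB, 0.06 for NELFCD, 0.04 for NELFE, 0.03 for AFF1, -0.01 for AFF4 and 0.12 for ELL2, with limma adjusted p-values from 0.508 (SUPT5H) to 0.976 (NELFB). ELL, NELFA and SUPT5H were higher in both K56A libraries than in both EV libraries, and SUPT4H1 was lower in both. These 4 of the 10 (SUPT4H1, ELL, NELFA and SUPT5H) stand against 45.6% of the genes tested whose groups did not overlap, 27.6% higher and 17.9% lower. Over all genes 0.787% were called, 0.19% higher and 0.597% lower, and 15.1% had an unadjusted p under 0.05, as did 0 of the 10. The median of the 10 was 0.05 and that of all genes tested 0.03. WT and K56A share the EV libraries, so these values and those of WT are not independent. The 95% intervals reached from a fold of 0.812 (SUPT4H1) to one of 1.39 (ELL2).

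The mutant and wild-type CDK9 lines were also compared directly. They differed in DOT1L, as given above, and CDK9 itself was lower in both K56A libraries, by a log2 difference of -0.24 ± 0.07 (SE; limma unadjusted p = 0.00835, adjusted p = 0.220), so the mutation and these levels cannot be told apart. ELL averaged 7.19 ± 0.347 FPKM in K56A and 6.05 ± 0.0868 FPKM in WT (SD, n = 2 each), a log2 difference of 0.23 ± 0.08. NELFA averaged 26.4 ± 0.966 FPKM in K56A and 23.7 ± 1.13 FPKM in WT, a log2 difference of 0.15 ± 0.06. SUPT5H averaged 79.1 ± 1.85 FPKM in K56A and 73.6 ± 1.02 FPKM in WT, a log2 difference of 0.10 ± 0.04. These 3 had unadjusted limma p-values of 0.0247, 0.0325 and 0.0385, but none passed over the 11566 genes tested (adjusted p = 0.305, 0.336 and 0.353). An unadjusted p under 0.05 was found for 13% of all genes tested, while 0.0605% were called, 0.0173% higher and 0.0432% lower. SUPT4H1, the partner of SUPT5H, was lower in both K56A libraries, with a log2 difference of -0.12 ± 0.07 (adjusted p = 0.511). Groups did not overlap for these 4 of the 10, against 45.4% of all genes tested, 26% higher and 19.5% lower. The other 6 had log2 differences of 0.04 for NELFB, 0.01 for NELFCD, 0.00 for NELFE, -0.05 for AFF1, -0.01 for AFF4 and -0.07 for ELL2, with limma adjusted p-values from 0.871 (NELFB) to 0.989 (NELFE). The median of the 10 was 0.01, as was that of all genes tested. Intervals reached from a fold of 0.745 (ELL2) to one of 1.34 (ELL).

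**Figure D2:**
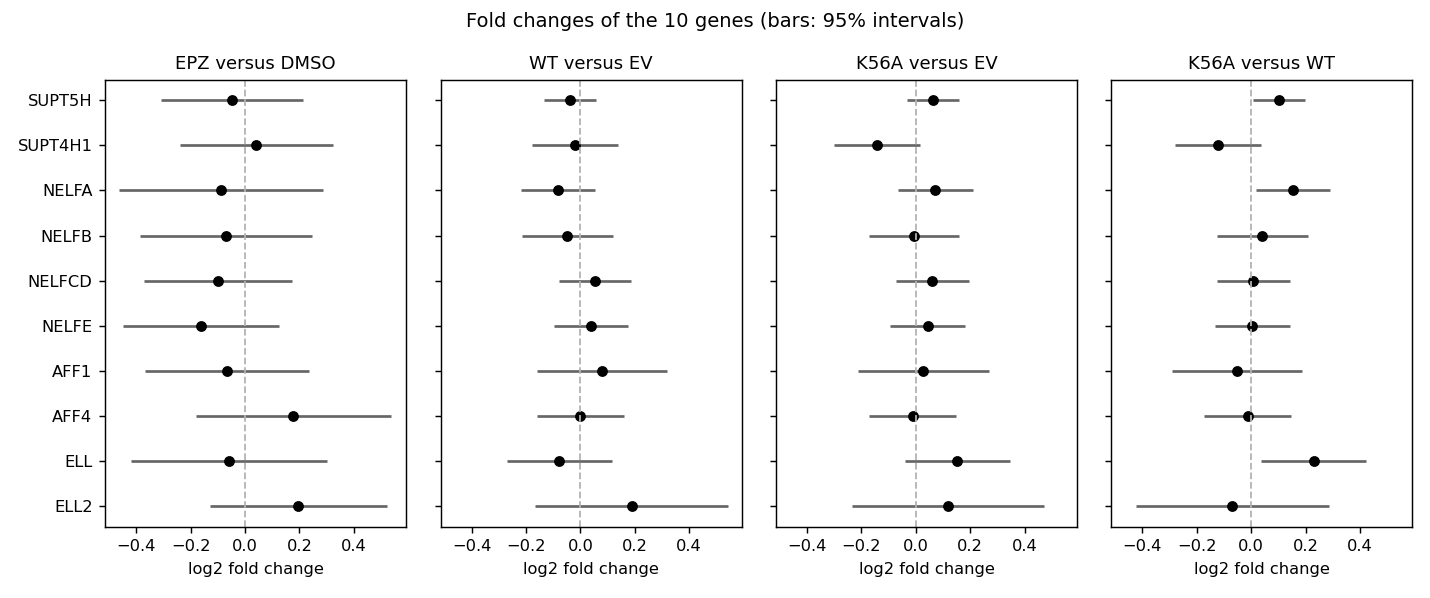
Log2 fold changes of the 10 genes (points) with 95% intervals (lines) in the 4 comparisons, first-named group over the second. The scale is log2(FPKM + 0.5); intervals of SUPT5H, NELFA and ELL in K56A versus WT lie above 0 and all others cross it; those 3 had adjusted p-values of 0.353, 0.336 and 0.305.

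Ratios within a library do not depend on how that library was scaled. The ratio of the DSIF subunits, SUPT5H to SUPT4H1, was 1.06 and 0.867 in EPZ and 1.10 and 0.949 in DMSO, near parity. It was 2.21 and 2.15 in K56A, 1.87 and 1.86 in WT and 2.05 and 1.74 in EV. Both K56A libraries lay above the other 4 knockdown libraries, and all 6 lay above the 4 inhibitor libraries. Counting protein-coding transcripts only, the same ratio was 1.46 and 1.39 in K56A, 1.19 and 1.16 in WT and 1.23 and 1.12 in EV, against 1.01 and 0.833 in EPZ and 1.25 and 0.882 in DMSO. On that measure the inhibitor and knockdown libraries overlapped. AFF1 to AFF4 was 0.772 and 0.670 in EPZ and 0.930 and 0.791 in DMSO, with both EPZ libraries lower, and 0.488 and 0.502 in K56A, 0.516 and 0.503 in WT and 0.520 and 0.443 in EV. ELL2 to ELL was 1.13 and 1.57 in EPZ and 1.03 and 1.19 in DMSO. In the knockdown libraries it was 0.566 and 0.657 in K56A, 0.824 and 0.709 in WT and 0.720 and 0.539 in EV. Summed over all transcripts, ELL2 thus exceeded ELL in all 4 inhibitor libraries and was below it in all 6 knockdown libraries. Counting protein-coding transcripts only, ELL2 to ELL was 1.14 and 1.46 in EPZ and 0.920 and 1.19 in DMSO. On that measure DMSO replicate 1 was below parity, so the split between the experiments did not hold for every library. These ratios were not tested, and how often ratios of other gene pairs separate the groups in this way was not computed. The inhibitor and knockdown libraries differ in experiment and in table as well as in the levels of CDK9 and DOT1L.

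**Figure D3:**
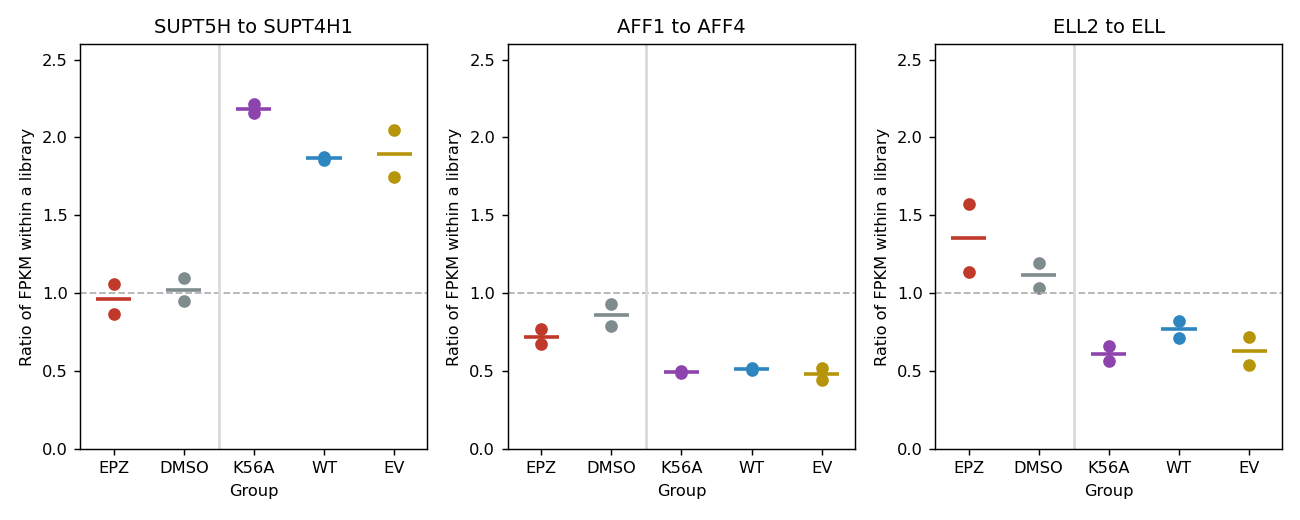
Ratios of FPKM within each library for the DSIF subunits, the AFF scaffolds and the ELL factors, by group; points are libraries, short bars are means of 2, and the dashed line is parity. SUPT5H to SUPT4H1 runs from 0.867 to 1.10 in the inhibitor libraries and from 1.74 to 2.21 in the knockdown libraries.

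The 3 tables list 60 transcripts of the 10 genes, of which 31 are annotated as protein-coding, 21 as retained-intron, 5 as targets of nonsense-mediated decay and 3 as processed transcripts. All 21 retained-intron transcripts belong to SUPT5H, SUPT4H1, NELFA, NELFCD and NELFE; no such transcript was listed for NELFB, AFF1, AFF4, ELL or ELL2. FPKM is scaled per length, so a short intron-holding fragment weighs more in these shares than in shares of reads. NELFCD had 26.4% and 31.4% of its FPKM in retained-intron transcripts in EPZ and 23.5% and 24.4% in DMSO. Its share was 58.3% and 54.6% in K56A, 53.3% and 60.7% in WT and 56.5% and 58.0% in EV. For NELFE the share was 11.9% and 11.6% in EPZ, 6.83% and 8.77% in DMSO, 39.8% and 43.3% in K56A, 45.2% and 42.8% in WT and 43.2% and 43.9% in EV. SUPT5H had 17.0% and 18.6% in EPZ, 14.7% and 15.9% in DMSO, 39.0% and 39.0% in K56A, 42.2% and 39.9% in WT and 42.8% and 40.2% in EV. For all 3 genes, each knockdown library was above each inhibitor library and each EPZ library above each DMSO library. The sets of listed transcripts differed between the experiments. SUPT5H and NELFCD each had 5 retained-intron transcripts in the inhibitor experiment and 7 in the knockdown experiment. NELFA had 2 and 3, and NELFE had 3 in both.

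NELFA had a retained-intron share of 8.89% and 4.07% in EPZ, 5.41% and 10.1% in DMSO, 21.3% and 15.6% in K56A, 23.7% and 26.0% in WT and 19.6% and 24.8% in EV. SUPT4H1 went the other way between the experiments, with 10.2% and 11.9% in EPZ, 22.3% and 6.12% in DMSO, 5.15% and 2.98% in K56A, 5.80% and a listing at 0 in WT, and a listing at 0 and 4.29% in EV. Over all protein-coding genes pooled, retained-intron transcripts held 6.40% and 6.48% of FPKM in EPZ, 6.35% and 6.20% in DMSO, 10.5% and 10.5% in K56A, 10.0% and 9.95% in WT and 9.96% and 9.86% in EV. The median of genes with such a transcript was 11.2% and 11.7% in EPZ, 10.8% and 10.8% in DMSO, 18.0% and 18.2% in K56A, 18.4% and 17.6% in WT and 18.0% and 18.0% in EV. The pooled share, unlike the median, includes genes with no such transcript. Higher shares in the knockdown libraries were therefore found across genes and not at NELF and SUPT5H alone. Of the 5 genes with such transcripts, 3 had higher shares in both EPZ libraries than in both DMSO libraries, as did 23.1% of the 5147 coding genes with such a transcript; 0 of the 5 had lower shares, against 12.8%. K56A libraries of SUPT5H lay below those of EV, 1 of the 5 against a background of 16.6% lower and 19.8% higher, and those of SUPT5H and NELFA lay below WT, 2 of the 5 against 16.5% of 5731 genes lower and 18% higher. WT and EV overlapped for all 5, while 19.6% of genes were higher in WT and 16.1% lower.

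**Figure D4:**
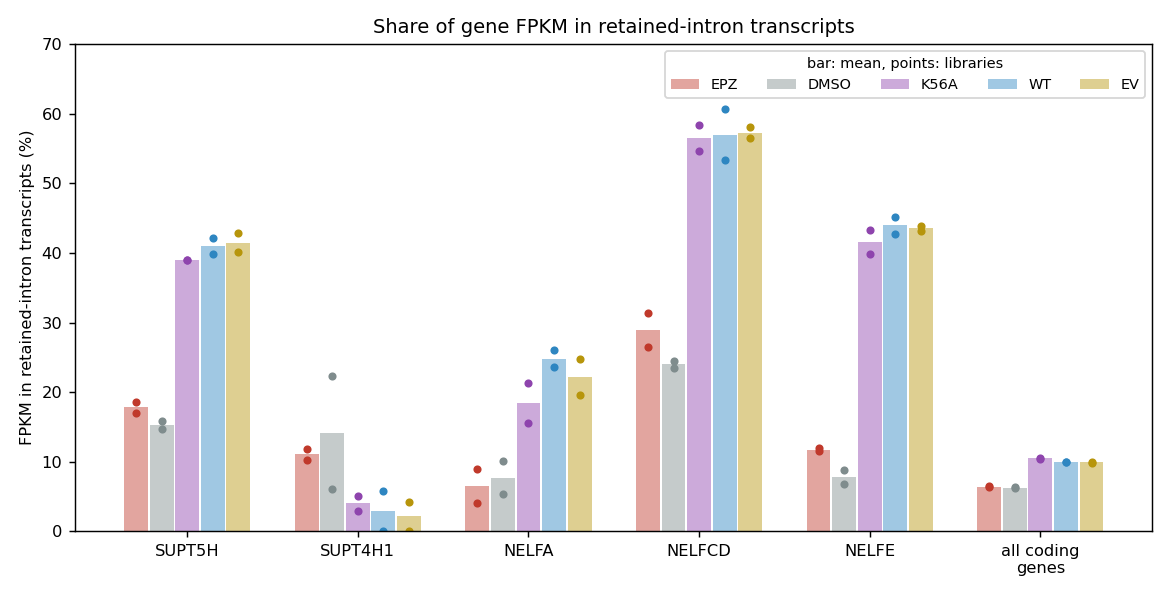
Share of FPKM in retained-intron transcripts for the 5 genes that have any and for all protein-coding genes pooled; bars are means of 2 libraries and points the libraries, in the order EPZ, DMSO, K56A, WT and EV. NELFCD reaches 53.3% to 60.7% in the knockdown libraries, where all coding genes pooled hold 9.86% to 10.5%. The pool includes genes with no retained-intron transcript. The median of genes with one, not drawn here, is 17.6% to 18.4% in these libraries.

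Single transcripts illustrate these shares. NELFE-208, which keeps the NELFE intron printed above, stood at 3.40 and 3.24 FPKM in EPZ and 2.23 and 2.50 FPKM in DMSO. It stood at 10.9 and 9.84 FPKM in K56A, 11.6 and 9.89 FPKM in WT and 10.8 and 11.5 FPKM in EV. The coding transcript NELFE-202 had the opposite order between the experiments, with 20.8 and 20.8 FPKM in EPZ, 28.7 and 22.3 FPKM in DMSO, 9.05 and 8.63 FPKM in K56A, 7.17 and 7.52 FPKM in WT and 6.86 and 7.10 FPKM in EV. NELFCD-206, which keeps the printed NELFCD intron, stood at 2.57 and 2.88 FPKM in EPZ, 1.96 and 2.31 FPKM in DMSO, 8.62 and 8.53 FPKM in K56A, 7.52 and 6.97 FPKM in WT and 7.72 and 7.74 FPKM in EV. Other retained-intron forms of NELFCD were as abundant in EV, with NELFCD-204 at 9.73 and 7.95 FPKM and NELFCD-208 at 7.77 and 7.01 FPKM. For SUPT5H the retained-intron form with the highest mean level was SUPT5H-218, at 5.27 and 4.52 FPKM in EPZ, 4.602 and 6.05 FPKM in DMSO, 13.6 and 13.7 FPKM in K56A, 12.3 and 14 FPKM in WT and 16.6 and 13.7 FPKM in EV. The next was SUPT5H-216, at 3.51 FPKM in EPZ, 4.0 FPKM in DMSO, 8.68 FPKM in K56A, 8.46 FPKM in WT and 9.0 FPKM in EV (means of 2). The main coding transcript of SUPT5H, SUPT5H-204, stood at 52.6 and 44.5 FPKM in EPZ, 49.8 and 48.8 FPKM in DMSO, 32.2 and 37.5 FPKM in K56A, 29.6 and 31.9 FPKM in WT and 31.3 and 36.1 FPKM in EV. The near-equal gene levels of SUPT5H in the 2 experiments were thus sums of unequal coding and intron-holding parts.

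The authors' deposited table for K56A and EV calls 2 of the 52 listed transcripts of the 10 genes at an adjusted p under 0.05. That is about the share called among all its transcripts, 3.8%. Both calls belong to NELFCD. NELFCD-214, its protein-coding form, was higher by 0.60 on the log2 scale in the authors' deposited table (adjusted p = 0.00985). Its levels were 14.3 and 16.9 FPKM in K56A, 16.3 and 7.54 FPKM in WT and 9.17 and 10.8 FPKM in EV. NELFCD-201, annotated as a target of nonsense-mediated decay, had a log2 difference of -1.41 in the authors' deposited table (adjusted p = 0.0431). Its levels were 3.60 and 1.65 FPKM in K56A, 2.98 and 8.99 FPKM in WT and 7.85 and 5.78 FPKM in EV. NELFCD-214 and NELFCD-201 ran in opposite directions, and the WT library with more NELFCD-214 (16.3 FPKM) had less NELFCD-201 (2.98 FPKM). Levels per transcript are estimates that can be unstable between forms of a gene. Whether these 2 calls are separate changes or a different split of reads between the forms was not tested. The 2 WT libraries of both transcripts lay far apart, on either side of both EV values, and the summed NELFCD level did not pass the test in K56A versus EV (log2 difference 0.06 ± 0.06, limma adjusted p = 0.679). With protein-coding transcripts only, which for NELFCD is NELFCD-214 alone, the limma log2 difference was 0.62 in K56A versus EV (adjusted p = 0.393) and 0.47 in K56A versus WT (adjusted p = 0.578), against 0.01 for the summed gene in K56A versus WT; over all alternatives adjusted p ran from 0.393 to 0.964 and from 0.578 to 0.998. For WT and EV the authors' deposited table calls 0 of 55 such transcripts, against 3.33% of all transcripts, with 4 at an unadjusted p under 0.05. For EPZ and DMSO it calls 0 of 50, against 1.19%, with 1 at an unadjusted p under 0.05. That transcript is the coding SUPT5H-213, at 2.30 and 3.44 FPKM in EPZ and 9.66 and 6.53 FPKM in DMSO, with a log2 difference of -1.49 in the authors' deposited table (adjusted p = 0.0741).

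**Figure D5:**
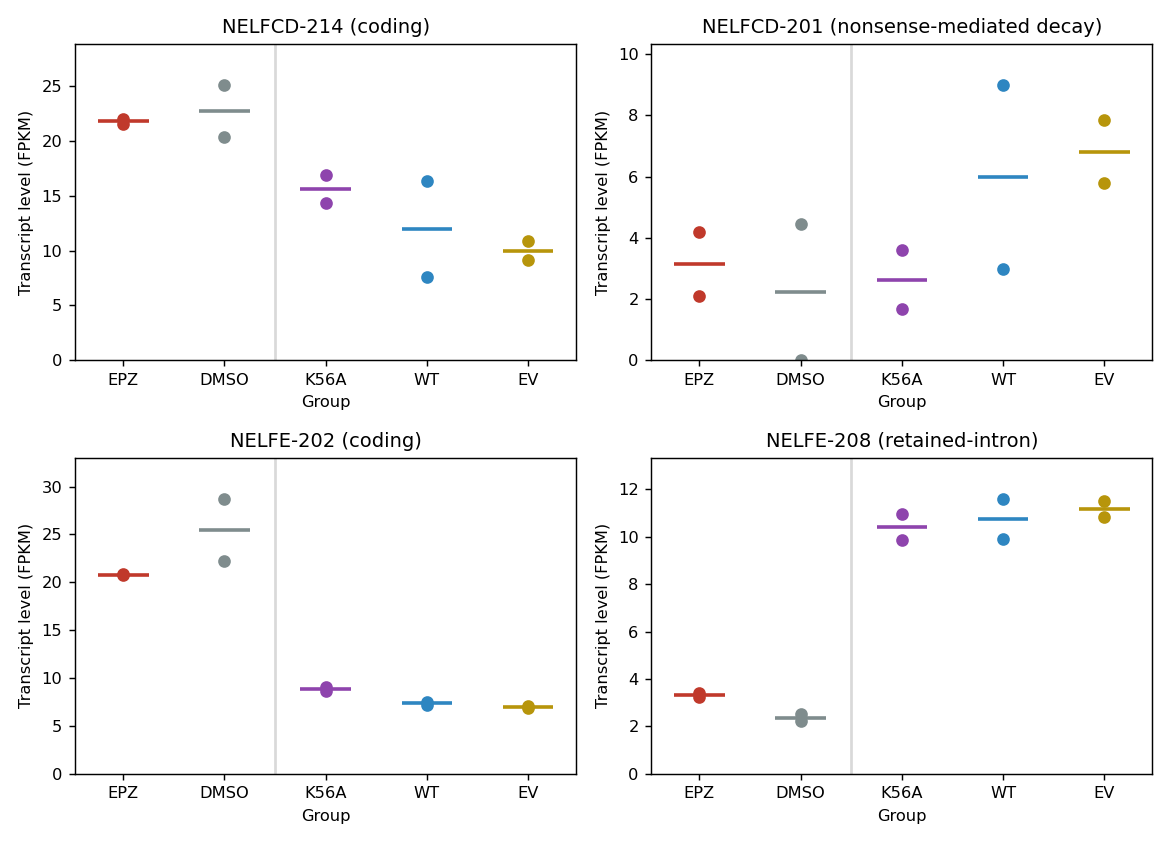
Levels in FPKM of 4 NELF transcripts by group, with linear axes from 0; points are libraries and short bars are means of 2. NELFCD-214 and NELFCD-201 show the spread of the 2 WT libraries (16.3 and 7.54 FPKM, 2.98 and 8.99 FPKM), and NELFE-208 shows the knockdown libraries at 9.84 to 11.6 FPKM.

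The other genes of the pathway were described from 6 lists, with the gene of smallest p named for each list and comparison. Apart from CDK9 and DOT1L, no listed gene passed in any of the 4 comparisons. With EPZ the counts were 0 of 7 for the rest of the super elongation complex, 0 of 8 for the PAF1 complex with SPT6, and 0 of 7 for FACT, TFIIS and elongin. They were 0 of 19 for genes of termination and dephosphorylation at the pause, 0 of 3 for the little elongation complex and 0 of 4 for other pausing proteins. INTS6, a subunit of Integrator, which cuts nascent RNA, had the largest of these differences, at 24.2 FPKM in EPZ and 14.6 FPKM in DMSO, a log2 difference of 0.75 ± 0.23 (limma adjusted p = 0.756). The log2 differences of the others were 0.16 for ELL3, 0.25 for CDC73, -0.22 for TCEA2, -0.18 for ICE2 and 0.20 for NRDE2. Their limma adjusted p-values lay between 0.757 (NRDE2) and 0.784 (ELL3). Medians of the lists lay between -0.04 and 0.08.

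Between the CDK9 lines the counts in each comparison were 0 of 6 for the rest of the super elongation complex and 0 of 7 for the PAF1 complex with SPT6. They were 0 of 7 for FACT, TFIIS and elongin, 0 of 17 for termination and dephosphorylation, 0 of 3 for the little elongation complex and 0 of 3 for other pausing proteins. Genes of these lists not tested here were ELL3, PAF1 itself, INTS12, PPP2R1A and POLR2M. Each had over 5% of FPKM in transcripts of 1 table (5.11% for PAF1) and was left out. ZC3H8, of the little elongation complex that serves small nuclear RNA genes with ELL, averaged 12.9 FPKM in WT and 10.4 FPKM in EV, a log2 difference of 0.30 ± 0.09 (limma adjusted p = 0.195). The other WT versus EV log2 differences were 0.13 for EAF1, 0.15 for LEO1, -0.13 for TCEA2, -0.22 for INTS14 and -0.11 for TRIM28, with limma adjusted p-values from 0.205 (INTS14) to 0.557 (EAF1).

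INTS3, another Integrator subunit, averaged 38.3 FPKM in K56A and 34.1 FPKM in EV, a log2 difference of 0.17 ± 0.05 (limma adjusted p = 0.169). The other K56A versus EV log2 differences were -0.16 for CCNT1, -0.16 for RTF1, 0.08 for SSRP1, 0.13 for ZC3H8 and -0.03 for TAF15, with limma adjusted p-values from 0.444 (CCNT1) to 0.701 (TAF15). CCNT1, a cyclin partner of CDK9, averaged 17.3 FPKM in K56A and 20.2 FPKM in WT, a log2 difference of -0.22 ± 0.09 (adjusted p = 0.352). INTS1, also of Integrator, averaged 54.1 FPKM in K56A and 46.6 FPKM in WT, a log2 difference of 0.21 ± 0.06 (adjusted p = 0.181). The other K56A versus WT log2 differences were -0.17 for LEO1, 0.11 for SSRP1, -0.21 for ICE2 and 0.11 for TRIM28, with limma adjusted p-values from 0.311 (TRIM28) to 0.472 (SSRP1). Medians of the lists over the 3 comparisons lay between -0.18 and 0.10.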

How the data were processed

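RNA from 10 HCT116 libraries (150 ng each, TruSeq mRNA kit, per the labels' protocols) was processed by the authors, who deposited 3 tables of 4 libraries holding FPKM per transcript. Named in the submitters' processing notes, without roles, are RSEM 1.3.3, STAR 2.7.1a, DESeq2 1.32.0, Trim Galore 0.6.6 and the build GRCh38. Neither annotation release nor strandedness is given in the sources used here. For each transcript the authors also deposited a log2 fold change, a p-value and its adjusted form, from edgeR in the inhibitor table and DESeq2 in the knockdown tables per the file headers; these were used only as deposited. The deposited tables hold 4 further summary columns that were not used.

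FPKM were summed per gene. The 3 knockdown lines were joined on 69086 transcripts listed in both of their tables, with K56A multiplied by 1.0007, the mean factor between the EV libraries that stand in both. Genes with over 5% of FPKM in transcripts of 1 table were left out (2284 of 13850). Genes reaching 1 FPKM in 2 or more libraries entered limma 3.58.1 (R 4.3.3) on log2(FPKM + 0.5), which understates changes of low genes, with an intensity trend and group means; the 6 knockdown libraries shared 1 fit. P-values are two-sided and adjusted by Benjamini-Hochberg at 0.05. The fits were tested on simulated data. Of 60 member transcripts, 58 matched GENCODE 29 by ID. Tables and figures were made with numpy 2.4.6, matplotlib 3.10.9, pandas 2.3.3 and Python 3.11.15. Depth is unknown, since the tables hold no counts.

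The 10 genes and the other lists were chosen with earlier results of these data known. All 10 are named in every comparison, with CDK9 and DOT1L; of each other list, members that pass or, with none, the member of smallest p. A further list is not reported here. Transcripts and ratios were picked for description after their values were seen. Alternatives were the pseudocount, the filter, scaling, the trend, a replicate block, coding transcripts only, the table used and leaving out each library.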

Additional observations from a re-analysis of the deposited data

How the results depend on the processing

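None of the 10 genes was called under any alternative: 0 of 530 values passed limma's test, and 42 had a sign opposite to the reported one, all of them in differences that were not called. Adjusted p-values ran from 0.233 to 1.00 for EPZ, 0.392 to 0.999 for WT versus EV, 0.198 to 0.997 for K56A versus EV and 0.244 to 0.998 for K56A versus WT. The number of genes called over all genes did depend on the settings, and the cause was not tested. Leaving out any 1 library of a comparison in turn, with the lone sample assumed to vary like the others, gave 34 (without EPZ replicate 2) to 1560 (without DMSO replicate 2) genes for EPZ in place of 1, 2 to 7 for WT versus EV in place of 62, 6 to 38 for K56A versus EV in place of 91, and 1 to 2 for K56A versus WT in place of 7. Without an intensity trend the counts were 0, 1, 4 and 0, in the same order of comparisons. With no filter on low values they were 0, 40, 55 and 1, and with protein-coding transcripts only 3, 37, 41 and 1. A pseudocount of 0.1 gave 0 for EPZ. The deposited table of a comparison alone gave 10 for WT versus EV and 22 for K56A versus EV. The replicate block gave 2 for EPZ, 46 for WT versus EV, 53 for K56A versus EV and 3 for K56A versus WT. Deviations of same-numbered libraries had r = 0.245 for EPZ with DMSO, a weak likeness, and between -0.033 and 0.033 in the CDK9 lines. The labels do not state that the numbers pair the libraries, and with 2 libraries a group these values cannot settle it. With the replicate block, the limma adjusted p of NELFE in EPZ versus DMSO was 0.337, in place of 0.763. With protein-coding transcripts only, the log2 ratio of SUPT5H to SUPT4H1 was 0.51 in K56A, 0.23 in WT and 0.23 in EV, in place of 1.13, 0.90 and 0.92, and the log2 difference of NELFCD was 0.62 in K56A versus EV and 0.47 in K56A versus WT, in place of 0.06 and 0.01. With 2 libraries a group and no counts, differences inside the intervals given cannot be resolved.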
